A study of Mus musculus with 2 samples.

Results

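The smooth muscle contractile genes examined here were Tagln, Cnn1, Myh11, Myl9, Smtn, Lmod1, Mylk, Des, Actg2 and Cald1. Their chromatin accessibility was taken from a deposited table of 63316 ATAC-seq peaks assigned to 20187 genes. A peak belonged to a gene when the table gave it that gene's symbol, or when it was intergenic and the table placed it nearest to that gene's start site. The rule found 64 peaks, 50 by symbol and 14 intergenic, for 9 of the 10 genes. Des was reached only through 1 intergenic peak, and Actg2 had none.

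ATAC-seq (assay for transposase-accessible chromatin, which counts DNA fragments cut out of open chromatin) was performed in primary mouse cardiac fibroblasts. TGF-β, the main profibrotic cytokine, was given at 5 ng/ml for 24 h to all of them. The 2 libraries were NC, from cells given scrambled siRNA, and siPiezo2, from cells given siRNA against the mechanosensitive channel gene Piezo2. Both received TGF-β, so no untreated cells were available for comparison. Each condition had 1 library, so no difference could be tested against replicates, and the knockdown itself is not measured by ATAC-seq. The design text deposited for the series names a Tet3 knockout with Cre in place of the siRNA, and the study's methods describe minced tissue and another kit than the labels do. The conditions and the cell type here rest on the sample labels. The study's figure legend for its ATAC-seq names the same cells, siRNAs and TGF-β treatment.

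Smooth muscle shortens when calcium and calmodulin activate myosin light chain kinase, which phosphorylates the regulatory light chain of myosin on actin filaments. Around this motor, calponin, caldesmon, transgelin, smoothelin and leiomodin bind or build actin filaments, and desmin joins them to the cell's intermediate filaments. Fibroblasts that turn into myofibroblasts under TGF-β take up part of this programme, much of which is driven in muscle by serum response factor (SRF) on CArG boxes and by its partners.

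The contractile genes were lower in siPiezo2 than in NC at most, but not all, of their peaks under the authors' normalization. So were most peaks of all genes. The strongest losses were at Tagln, Myl9 and Lmod1, whose summed density fell to 50.4%, 52.1% and 61.3% of NC. Smtn, Myh11 and Cnn1 could not be told from NC beyond the error or the choice of peaks, Mylk and Cald1 sat near the genome-wide median, and the single peak given to Des was higher, though not beyond the variance between the libraries. Values are read densities (reads per kb of a 2000-bp window, normalized by the authors), and ratios are log2 of siPiezo2 over NC after 1 was added to each. Brackets after a ratio give its 95% exact (Clopper-Pearson) interval, which covers counting error only. At Tagln, Smtn and Cald1 some windows overlap, so the intervals of their sums count shared reads more than once and are too narrow.

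Over the 64 peaks, 46 (71.9%) were lower in siPiezo2, against 63.7% of all 63316 peaks. Below 0.66 of NC were 13 member peaks (20.3%), against a background of 13.5% of all peaks, and above 1.5 of NC were 5 (7.81%), against 3.21%. The median log2 ratio was -0.27 over the member peaks and -0.13 over all peaks. Intervals lay wholly below 0 for 15 of the 64 member peaks (12.6% of all peaks) and wholly above 0 for 4 (4.03%). The variance between the libraries, estimated at peaks called in both, was 2.35 times that of counting error. Once widened to it, the intervals did so for 4 (3.22% of all peaks) and 2 (0.918%). Peaks called in a single library, as most member peaks were, did not enter this estimate. Under this normalization the member shares were above the background on both the lower and the higher side, in a table that itself leaned lower. With a single peak kept from each set of member peaks with overlapping windows, 3 of 58 were above 1.5 (3.21% of all peaks). Of all 64, 0 were above 2 (0.504% of all peaks), so the upper count rests on a few peaks near the background. The split between lower and higher depended on the scaling: with the median of ratios 8 were below 0.66 and 6 above 1.5 (8.27% and 6.19% of all peaks), and with recovered reads 6 and 6 (7.07% and 7.46%).

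**Figure D1:**
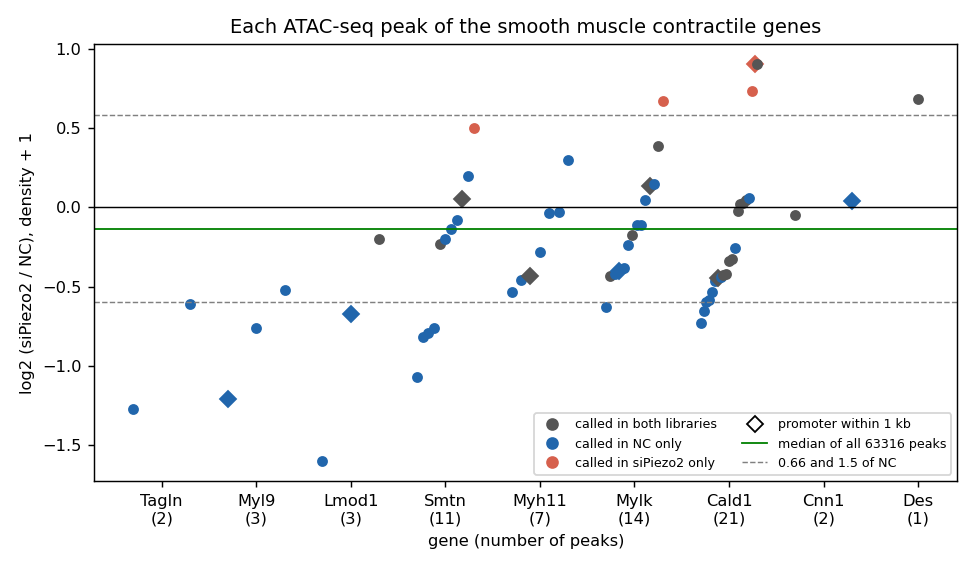
Log2 ratio of siPiezo2 to NC (vertical axis, density + 1) of each of the 64 peaks, by gene in the order of the summed ratio, coloured by the library in which the authors called the peak. The 8 peaks of Tagln, Myl9 and Lmod1 all lie below 0, while Smtn, Mylk and Cald1 hold peaks on both sides.

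The authors' peak calling divided the members further. Peaks called in both libraries numbered 20, with a median log2 ratio of -0.11 (0.0025 over all such peaks), and none of them was below 0.66 of NC (5.36% of all such peaks). Peaks called in NC only numbered 40 (62.5%, against 64.0% of all peaks), with a median of -0.45 (-0.23 over all such peaks), and held all 13 that were below 0.66 (18.3% of all such peaks). The calls rest on the same signal, so lower peaks fall among them by construction. Peaks called in siPiezo2 only numbered 4 (6.25%, against 2.16% of all peaks). The NC library held more reads in the windows, 4615335 against 2754046, and the part of this depth in which library a peak was called in was not tested.

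By position, the 9 member peaks in promoters within 1 kb of a start site had a median of -0.40, against -0.030 over all such peaks, and 5 of them (55.6%) were lower, against 53.7%. Counted by distance alone, the 12 member peaks within 1 kb of a start had a median of -0.18, against -0.042, and 6 were lower. The 36 intron peaks had a median of -0.30, against -0.17 over all intron peaks. The 14 distal intergenic peaks had a median of -0.22, near the -0.18 of their class. The member peaks had a median of 61 reads in NC and 37.5 in siPiezo2, close to the 58 and 36 over all peaks.

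Summed over their peaks, 8 of 9 genes were below 0 (5 to 7 under other scalings). Their median was -0.23, while that of all 20187 genes was -0.11 and 65.7% of those were below 0. Past the lower threshold were 3 genes, against a background of 6.45% of genes, and past the upper one was 1, against 1.5%. With the median of ratios, Lmod1 (-0.56) was no longer past the lower one. The interval lay below 0 for Tagln, Myl9, Lmod1 and Smtn, as for 18.6% of all genes, and above 0 for Des, as for 4.41%. With intervals widened in the same way, Smtn (-0.53 to 0.022) and Des (-0.012 to 1.41) no longer lay apart from 0, and 7.47% of all genes lay below it and 1.18% above. All 64 peaks together went from a density of 2068 to 1769, a log2 ratio of -0.22. No interval is given for this sum, since some windows overlap and share reads.

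**Figure D2:**
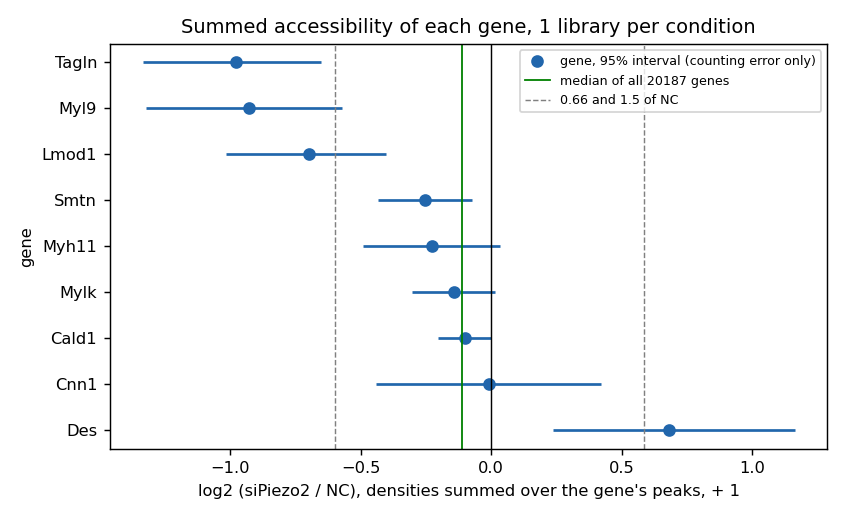
Log2 ratio of siPiezo2 to NC of the density summed over each gene's peaks (horizontal axis), with its 95% counting interval, for the 9 genes with a peak. Tagln, Myl9 and Lmod1 lie left of the line at 0.66 of NC, 5 genes lie between -0.25 and -0.0069, and Des lies right of the line at 1.5.

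RefSeq promoter windows, 250 bases before to 50 after a gene start in GRCm38.p6, were taken for 7 of the 10 genes (not for Tagln, Myh11 and Actg2, which were not searched), with 8 windows because Cald1 has an upstream and an internal start. Of these, 4 are shown: those of Myl9 and Lmod1, whose promoter peaks were past the lower threshold, and both of Cald1, whose promoter peaks had ratios of opposite sign. Capitals mark matches on either strand to the CArG box (bound by SRF), CATTCC (TEAD factors), TGANTCA (AP-1) and CAGACA (SMAD factors). The longer SMAD element GTCTAGAC was also searched and was in none of the 8 windows, against 0.213% of 32851 RefSeq windows.
Myl9, chr2:156775214-156775513, plus strand: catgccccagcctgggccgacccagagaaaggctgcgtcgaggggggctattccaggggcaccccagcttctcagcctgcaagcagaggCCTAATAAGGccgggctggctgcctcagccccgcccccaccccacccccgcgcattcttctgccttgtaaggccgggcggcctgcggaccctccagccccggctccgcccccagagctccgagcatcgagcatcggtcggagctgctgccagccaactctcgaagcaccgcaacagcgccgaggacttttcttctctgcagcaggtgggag
Lmod1, chr1:135324563-135324862, plus strand: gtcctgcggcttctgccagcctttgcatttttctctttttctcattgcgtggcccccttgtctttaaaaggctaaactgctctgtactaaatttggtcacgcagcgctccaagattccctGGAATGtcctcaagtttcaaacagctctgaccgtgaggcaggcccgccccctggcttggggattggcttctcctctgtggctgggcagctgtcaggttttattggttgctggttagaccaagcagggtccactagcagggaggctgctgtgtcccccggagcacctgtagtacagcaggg
Cald1 upstream start, chr6:34598254-34598553, plus strand: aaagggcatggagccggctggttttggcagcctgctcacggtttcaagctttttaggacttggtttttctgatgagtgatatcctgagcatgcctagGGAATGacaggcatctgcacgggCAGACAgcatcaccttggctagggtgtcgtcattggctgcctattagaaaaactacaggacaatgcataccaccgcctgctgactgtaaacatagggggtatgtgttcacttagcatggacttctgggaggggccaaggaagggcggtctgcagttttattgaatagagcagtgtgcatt
Cald1 internal start, chr6:34709194-34709493, plus strand: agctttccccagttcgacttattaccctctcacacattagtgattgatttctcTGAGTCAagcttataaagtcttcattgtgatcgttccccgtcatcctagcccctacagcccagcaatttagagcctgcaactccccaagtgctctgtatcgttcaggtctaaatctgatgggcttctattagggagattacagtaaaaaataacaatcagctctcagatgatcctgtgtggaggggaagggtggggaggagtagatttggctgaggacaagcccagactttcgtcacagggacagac

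The CArG box in the Myl9 window, CCTAATAAGG, begins 161 bases before the start and was the only CArG match in the 8 windows, against 1.63% of all windows. CATTCC or its reverse was in 4 windows (Lmod1, upstream Cald1, Mylk and Smtn), against 14.7% of all windows. TGANTCA was in 2 (internal Cald1 and Mylk), against 7.81%, and CAGACA or its reverse in 3 (upstream Cald1, Des and Mylk), against 21.0%. No matches overlapped, and the Cnn1 window held none of these elements. A match is a string of letters in a short window and does not show binding.

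Tagln encodes transgelin (SM22α), a calponin-like protein that binds actin and marks early smooth muscle. Its gene (chr9:45840917-45847356, minus strand, in the table's coordinates) had 2 peaks, both called in NC only. The peak in the 5′ UTR, 76 bp past the start, had a density of 72.6 in NC and 29.5 in siPiezo2 (185 and 45 reads), a log2 ratio of -1.27 (-1.81 to -0.83). The peak 1034 bp before the start went from 49.8 to 32.2 (125 and 50 reads), a ratio of -0.61. The windows of these peaks overlap, so they share reads and are not separate measurements. Their sum went from 122 to 61.7, a log2 ratio of -0.98 (-1.34 to -0.65), at the 1.02 percentile of all genes. The 18 other peaks within 100 kb had a median of -0.33, itself below that of all peaks, and the part of this surrounding difference in the value of Tagln was not tested.

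Myl9 encodes the regulatory light chain of smooth muscle and non-muscle myosin, the substrate of myosin light chain kinase. Its promoter peak, 380 bp before the start, went from 51.8 to 21.8 (128 and 34 reads), a log2 ratio of -1.21 (-1.84 to -0.69), at the 0.368 percentile of promoter peaks. A peak in intron 1, 2082 bp past the start, went from 22.6 to 12.9, a ratio of -0.76 (-1.61 to -0.049). An intergenic one 8586 bp before the start went from 24.3 to 16.7, a ratio of -0.52 (-1.26 to 0.14). All 3 peaks were thus lower, and all 3 were called in NC only, but with widened intervals only the promoter peak stayed below 0. Their sum went from 98.7 to 51.4 (237 and 82 reads), a log2 ratio of -0.93 (-1.32 to -0.57). The 12 other peaks within 100 kb had a median of -0.14, near that of all peaks.

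Lmod1 encodes leiomodin 1, which starts actin filaments in smooth muscle. Its most different peak was in intron 1, 34391 bp past the start, and went from 44.5 to 14.0 (107 and 22 reads), a log2 ratio of -1.61 (-2.41 to -1.0). This was the lowest ratio of all 64 peaks. The promoter peak, 114 bp before the start, went from 33.6 to 20.7 (81 and 33 reads), a ratio of -0.67. The intron 1 and promoter peaks were called in NC only. The strongest peak, in the 3′ UTR and called in both libraries, went from 51.7 to 45.0, a ratio of -0.20 (-0.64 to 0.23). The sum went from 130 to 79.7, a log2 ratio of -0.70 (-1.02 to -0.40), and the 12 other peaks within 100 kb had a median of -0.11.

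Smtn encodes smoothelin, an actin-associated protein of contractile smooth muscle. Its promoter peak went from 52.4 to 54.5 (135 and 83 reads), a log2 ratio of 0.053 (-0.36 to 0.46), and its intron 8 peak from 36.4 to 33.1, a ratio of -0.13. The lower values came from 9 intergenic peaks upstream, which the table ties to Smtn only by the nearest start site. Of these 7 were lower, and their sum went from 206 to 160 (481 and 259 reads), a log2 ratio of -0.36 (-0.59 to -0.15). The peak farthest away, 45728 bp upstream, went from 34.0 to 15.7 (81 and 25 reads), a ratio of -1.07 (-1.83 to -0.46). A peak 32748 bp upstream, called in siPiezo2 only, went from 16.0 to 23.1, a ratio of 0.50 (-0.16 to 1.22). Another 3 were past the lower threshold, with ratios from -0.82 to -0.76. For all 11 peaks the log2 ratio was -0.25 (-0.43 to -0.074), and without the intergenic ones it was -0.021.

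Myh11 encodes the smooth muscle myosin heavy chain, the marker most particular to that tissue. Its promoter peak went from 32.6 to 23.9 (79 and 38 reads), a log2 ratio of -0.43 (-1.05 to 0.13). The other 6 peaks were in introns, were called in NC only, and were weak, with NC densities from 14.5 to 20.9. Their ratios ran from -0.53 in intron 27 to 0.30 in intron 8, and none passed a threshold. The sum went from 139 to 119, a log2 ratio of -0.23 (-0.49 to 0.034), so at this depth no difference could be told from counting error.

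Mylk encodes myosin light chain kinase. Its 14 peaks went from a sum of 365 to 330 (876 and 530 reads), a log2 ratio of -0.14 (-0.30 to 0.013), close to the median of all genes. The promoter peak at the first start went from 24.3 to 26.7, a ratio of 0.14 (-0.46 to 0.73), and a promoter peak 39649 bp further in from 18.0 to 13.4, a ratio of -0.40 (-1.25 to 0.35). Both intervals hold 0, so neither start differed beyond counting error. The 12 intron peaks ranged from -0.63 in intron 16 (45.1 to 28.8, 112 and 45 reads) to 0.67 in intron 10 (11.6 to 19.1, 26 and 32 reads, called in siPiezo2 only). The interval was -1.18 to -0.13 for the intron 16 peak and -0.073 to 1.52, which holds 0, for the intron 10 peak. The strongest by mean density, in intron 17, went from 42.6 to 31.4, a ratio of -0.43.

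**Figure D3:**
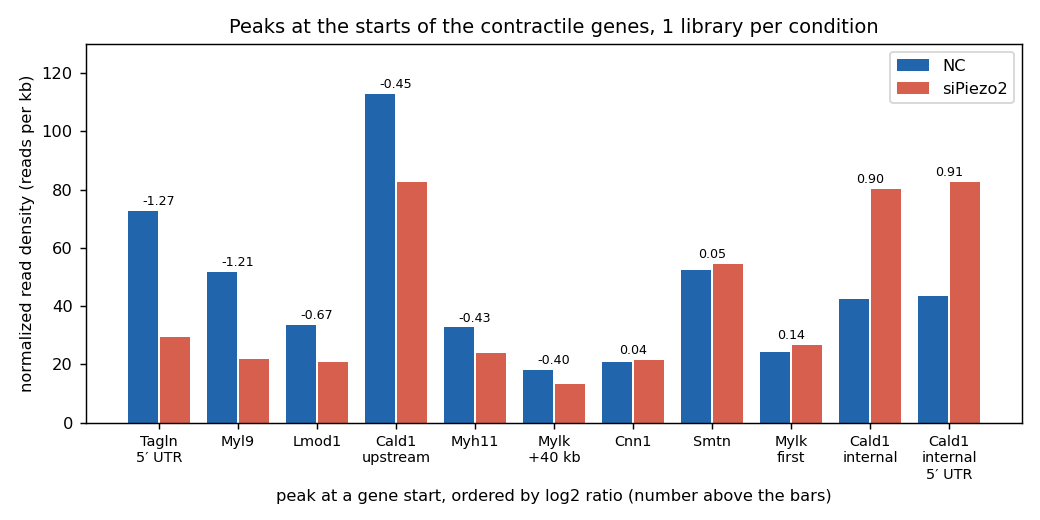
Normalized read density (vertical axis, reads per kb) in NC and siPiezo2 at the 9 promoter peaks and the 2 peaks in 5′ UTRs, 1 library per condition, with the log2 ratio above each pair. The ratios of Tagln and Myl9 are the lowest, the bars of Cnn1 and Smtn are level, and those at the internal start of Cald1 nearly double.

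Cnn1 encodes calponin 1, which binds actin and slows the myosin motor. Its promoter peak, 30 bp before the start, went from 20.9 to 21.5 (49 and 35 reads), a log2 ratio of 0.042 (-0.63 to 0.70). Its intergenic peak, 2997 bp before the start, went from 27.8 to 26.9 (67 and 43 reads), a ratio of -0.045. The sum was 48.7 in NC and 48.5 in siPiezo2, a ratio of -0.0069 (-0.44 to 0.42), so a difference within those bounds was not detectable at this depth.

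Des encodes desmin, the intermediate filament protein of muscle. No peak carried its symbol, and the intergenic one 12805 bp before its start, called in both libraries, went from 32.0 to 51.9 (80 and 81 reads). The log2 ratio was 0.68 (0.24 to 1.16, or -0.012 to 1.41 widened), at the 97.3 percentile of distal intergenic peaks, against a median of -0.15 over the 13 other peaks within 100 kb. The table gives only the nearest start site, so the value is that of 1 region and not of the Des promoter.

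Actg2, the gamma actin of visceral smooth muscle, had no peak under the rule. The peak whose nearest start was that of Actg2, 5919 bp upstream of it, carries the symbol of Stambp. It went from 21.5 to 17.8 (50 and 29 reads), a log2 ratio of -0.26 (-0.98 to 0.42).

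Cald1 encodes caldesmon, which ties actin to myosin and restrains the motor, and which is made in a smooth muscle and a shorter non-muscle form. It had 21 peaks, more than any other member, whose sum went from 837 to 780 (2107 and 1204 reads), a log2 ratio of -0.10 (-0.21 to 0.00045). This sum held values of opposite sign. The promoter peak at the upstream start, the strongest of all member peaks in NC, went from 113 to 82.6 (307 and 120 reads), a ratio of -0.45 (-0.77 to -0.14), whose widened interval holds 0 (-0.94 to 0.023). At the internal start, the promoter peak went from 42.5 to 80.4 (110 and 122 reads), a ratio of 0.90 (0.54 to 1.31), and was called in siPiezo2 only. The 5′ UTR peak there went from 43.5 to 82.5 (113 and 125 reads), a ratio of 0.91 (0.54 to 1.30), at the 99.9 percentile of its class, and its widened interval stays above 0 (0.34 to 1.51). These 2 windows overlap, so the higher value at the internal start counts as 1 measurement. A peak 1754 bp before this start, whose window overlaps both, went from 32.2 to 33.6 (79 and 53 reads), a ratio of 0.059 (-0.47 to 0.58). The density at the internal start went from less than that of the upstream start in NC to about the same level in siPiezo2.

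The distance between the upstream and internal starts was 110942 bp in the table and 110940 bp between the RefSeq starts of the printed sequences, by which they were paired, since the builds differ. Of the 12 peaks upstream of the windows around the internal start, 10 were lower, and their sum went from 479 to 358 (1203 and 555 reads), a log2 ratio of -0.42 (-0.57 to -0.27). Past those windows, 4 of 6 peaks were lower, and their sum went from 240 to 225 (602 and 349 reads), a ratio of -0.091 (-0.29 to 0.10). The division of the gene was chosen after the values were seen, and some windows within each group overlap. Among the peaks outside the promoters, the lowest ratio was in intron 1, 10266 bp past the first start, where density went from 40.8 to 24.1, a ratio of -0.73 (-1.34 to -0.20). A peak in intron 3 called in siPiezo2 only went from 20.5 to 34.8 (49 and 56 reads), a ratio of 0.74 (0.19 to 1.35). The 11 other peaks within 100 kb had a median of -0.58, lower than around any other member.

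**Figure D4:**
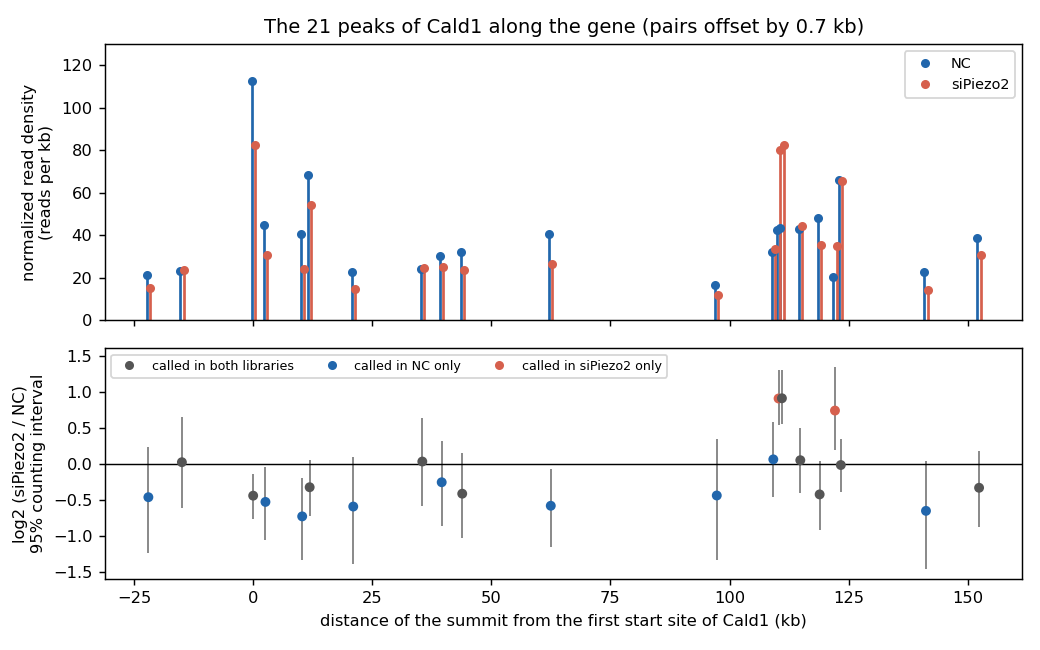
The 21 peaks of Cald1 by distance of their summit from the first start site (horizontal axis, kb): density in NC and siPiezo2 above, and log2 ratio with 95% counting interval below. Density is lower in siPiezo2 at the upstream start and through most of intron 1, and higher at the internal start about 110 kb away.

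Lists of related genes were set beside the members on the same summed densities, with 65.7% of all genes below 0. Under the other scalings the median of all genes was -0.027 to 0.026. Among 22 actin, myosin and tropomyosin partners, all 22 were below 0 (19 with the median of ratios), with a median of -0.40. The lowest was Acta2, the smooth muscle α-actin that marks myofibroblasts, which went from 209 to 63.5 (523 and 97 reads), a log2 ratio of -1.70 (-2.04 to -1.40), and the highest was Myl6, an essential myosin light chain, at -0.12. Past the threshold, as were 6.45% of all genes, were Acta2 and Fhl2 (-0.60), a LIM protein named here after its value was seen, and only 1 gene was past it with the same total of densities or the median of ratios. Acta2 was thus lower than any of the 9 members.

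The kinase and phosphatase arm, which sets light chain phosphorylation, had peaks at 14 of 15 genes, with 11 below 0 (7 to 8 under the other scalings) and a median of -0.15. Its values ran from -0.41 at Camk2g, a calmodulin-dependent kinase, to 0.25 at the calmodulin gene Calm3, and none passed a threshold. Of 12 transcriptional regulators of smooth muscle genes, 11 had a peak, 5 were below 0 (2 to 4 under the other scalings), and the median was 0.0023. These ran from Mrtfa, an actin-sensing cofactor of SRF, at -0.20 to the TGF-β effector Smad3 at 0.17, and Srf itself was at -0.13 (-0.40 to 0.13). Under the other scalings their median was 0.090 to 0.14.

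Other leiomodin, calponin, smoothelin, transgelin and light chain kinase genes had peaks at 8 of 11, with 4 below 0 and a median of 0.012. Under the other scalings 3 were below 0, and the median was 0.099 to 0.15. They ran from Cnn3, the calponin of non-muscle cells, at -0.54 (-0.72 to -0.36) to the skeletal muscle kinase Mylk2 at 0.29 (-0.022 to 0.61). Of 4 other intermediate filament genes, 3 had a peak, all below 0 (2 with the median of ratios), from Synm at -0.24 to Lmna at -0.071.

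**Figure D5:**
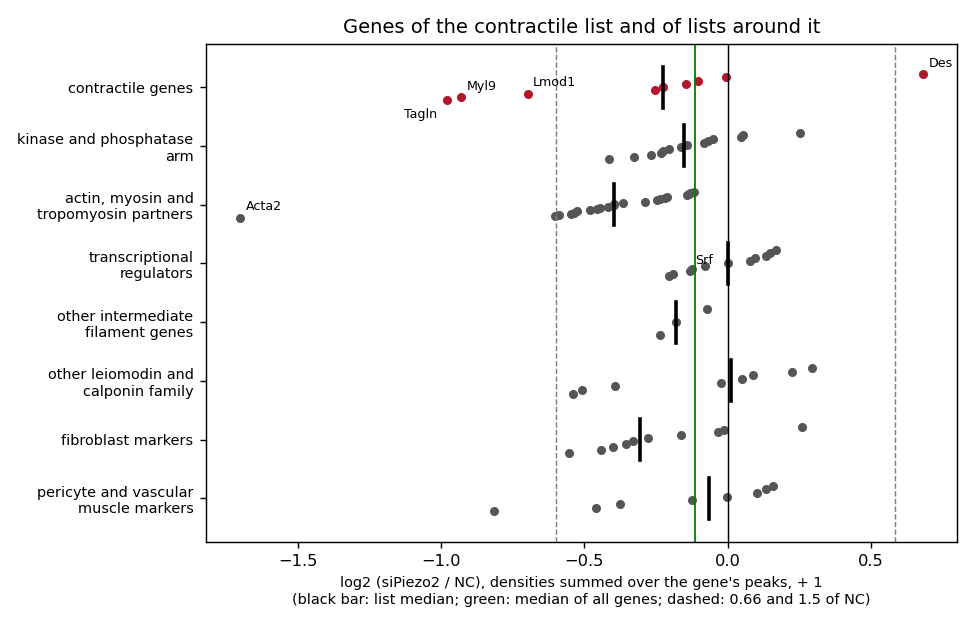
Log2 ratio of siPiezo2 to NC of summed density (horizontal axis), 1 point per gene, for the 9 contractile genes and 7 lists, with each list's median as a black bar. The actin, myosin and tropomyosin partners all lie below 0 on this scaling (19 of 22 with the median of ratios), while the transcriptional regulators lie on both sides of it.

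Markers of the cells the culture could hold were read in the same way, against 65.7% of all genes below 0. All 10 fibroblast markers had peaks, and 9 were lower (7 to 8 under the other scalings), with a summed density of 3039 in NC and 2405 in siPiezo2, from Col1a1 at -0.55 to Thy1 at 0.26. Of 9 pericyte and vascular smooth muscle markers, 8 had peaks (Mcam had none) and 5 were lower (3 to 4 under the other scalings), with sums of 1110 and 926, from Rgs5 at -0.82 (-1.09 to -0.56) to Cspg4 at 0.16. Peaks were listed for 4 of 10 cardiomyocyte markers (423 and 398), with none at Myh6, Myh7, Tnni3, Actc1, Ttn and Myl2, and these ran from Tnnt2 at -0.28 to Myl3 at 0.20. Peaks were also listed for 6 of 6 endothelial markers (999 and 939, from Emcn at -0.71 to Vwf at 0.037) and 3 of 5 macrophage markers (310 and 220, from Adgre1 at -0.61 to Ptprc at -0.21). The medians were -0.31 for the fibroblast, -0.064 for the pericyte and vascular smooth muscle, 0.013 for the cardiomyocyte, -0.019 for the endothelial and -0.57 for the macrophage markers. Under the other scalings they were, in the same order, -0.22 to -0.10, 0.021 to 0.16, 0.099 to 0.16, 0.053 to 0.12 and -0.49 to -0.39. The part of these cells in the contractile genes' values was not tested. In bulk ATAC-seq, fewer cells with an open site and fewer open copies per cell cannot be told apart.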

How the data were processed

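ATAC-seq of 2 libraries, NC and siPiezo2, was analysed from the 1 table the authors deposited, with a row per peak. The submitters' notes name BWA 0.7.12 and mm10, but the table's gene positions are not those of mm10 and were taken to be GRCm39. Coordinates of genes are the table's, and promoter sequences are RefSeq's (GRCm38.p6). No coordinate was converted.

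The signal columns the authors deposited are read densities. They were taken to be normalized by a linear fit on signal strength over the peaks called in both libraries, which the study's methods do not describe. The authors' log2 and p-value columns hold their own comparison and were not used. Undoing the fit gave whole reads per 2000-bp window, within 0.1 read, for 100% of peaks, after which 1 read taken to be added by the normalization was removed. Intervals are exact binomial (95%, Clopper-Pearson) on these reads, without the added 1. The method was tested on simulated data.

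Densities were summed per gene, with symbols matched through the table or GENCODE. The thresholds of 0.66 and 1.5 mark a 1.5-fold difference. With 1 library per condition there was no test. Every member was named, with its promoter peaks within 1 kb (or the nearest to the start), strongest, lowest and highest peak, or all where it had 4 or fewer. Of each list, the lowest and highest genes, Acta2 and Srf were named. The members, lists and markers were chosen with earlier results of these data known. Alternatives were another pseudocount, scaling, window rule, peak set, read minimum and threshold. Python 3.11.15, pandas 2.3.3, numpy 2.4.6, scipy 1.17.1 and matplotlib 3.10.9 were used.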

Additional observations from a re-analysis of the deposited data

How the results depend on the processing

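Of the values recomputed, 71 stayed within their counting interval or within 1.5 times their count, and the others did not. Of 69 values of single genes, 11 changed sign: 5 of Cnn1 (0.042 to 0.17), 1 of Myh11 (0.0093 with recovered reads), and those of Smtn, Cald1 and Mylk below. The median over the members, -0.23 as reported, was -0.14 with densities scaled to the same total, -0.087 with the median of ratios, -0.062 with recovered reads, -0.074 with promoter peaks only and -0.43 with each gene's strongest peak. The scalings moved the median of all genes by 0.087, 0.14 and 0.14, and the members' median differed from that of all genes by -0.35 to -0.049 over the alternatives. Smtn turned to 0.053 with promoter peaks only or its strongest peak, and was -0.021 without intergenic peaks. Cald1 was 0.037 with the median of ratios, -0.31 with separate windows (which leaves out both higher peaks at its internal start), 0.069 with promoter peaks and -0.45 with its strongest. Mylk was 0.020 with recovered reads and -0.43 with its strongest peak, and Lmod1 -0.20 with its strongest. Member peaks below 0.66 of NC numbered 8 with the median of ratios (8.27% of all peaks), 6 with recovered reads (7.07%), and 4 below 0.5 (2.76%). Those above 1.5 numbered 3 of 58 with separate windows, where a single peak was kept from each overlapping set (3.21% of all peaks). Of all 64, 0 were above 2 (0.504%).

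No paired analysis was possible because each condition had 1 library. At 21102 peaks called in both libraries with 49 to 427 reads, the members' range, the ratios varied 2.35 times as much as counting error gives, true differences included. The spread at peaks called in a single library, as most member peaks were, was not estimated. With intervals widened to match, 4 member peaks stayed below 0 (at Tagln, Myl9, Lmod1 and Smtn; 3.22% of all peaks) and 2 above (the internal start of Cald1; 0.918%), and of the genes Tagln, Myl9 and Lmod1 stayed below (7.47% of all genes), while Smtn (-0.53 to 0.022) and Des (-0.012 to 1.41) no longer lay apart from 0. These widened intervals and the lists under other scalings were added after seeing the data.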
